A study of Homo sapiens with 9 samples.

Results

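The cytosolic ribosomal protein genes were taken as all protein-coding GENCODE genes whose symbol begins with RPL or RPS and a digit, together with RPLP0, RPLP1, RPLP2 and RPSA and without the RPS6K and RPS4Y symbols. Of 58884 gene identifiers in the deposited files, 89 met this rule. They comprised 46 core proteins of the large subunit, 31 core proteins of the small subunit and 12 further genes. The further genes were 8 paralogs (RPL3L, RPL7L1, RPL10L, RPL22L1, RPL26L1, RPL36AL, RPL39L and RPS27L), 3 readthrough genes that join a ribosomal protein gene to its neighbour, and RPS19BP1, whose product binds a ribosomal protein and is not one itself.

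The cells were HK-2, a line immortalised from the proximal tubule of a human kidney, and their RNA gave 9 libraries in 3 groups. The first group (n = 3) had received lactoferrin, an iron-binding milk glycoprotein, for 6 h and then fine airborne particulate matter (PM2.5) for 18 h. The second (n = 3) had received PM2.5 for 24 h, and the control group (n = 3) is labelled untreated, although the protocol describes a vehicle for control cells. Lactoferrin was given at 40 mg/ml and PM2.5 at 1 mg/ml according to the series text, units that could not be checked, and no group received lactoferrin without PM2.5. The labels do not state whether replicates were cultured separately, so p-values measure only how much these samples varied, which may be technical variation. Of 9 kidney epithelium markers, 7 had a median of at least 1 FPKM (fragments per kilobase of exon, scaled to library depth), but all 10 segment markers of mature proximal tubule were below 1 FPKM in every library, among them the endocytic receptor genes LRP2 and CUBN. No marker of endothelium (3) or immune cells (4) had a median of at least 1 FPKM, and of 4 fibroblast markers COL1A1 had (1.41 FPKM).

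Cytosolic ribosomes consist of a small subunit, which decodes the mRNA, and a large subunit, which forms the peptide bond. Each protein is present in about 1 copy per ribosome, apart from the acidic stalk proteins, and most ribosomal protein mRNAs begin with a cytosine followed by a run of pyrimidines, the 5′ terminal oligopyrimidine (TOP) tract. Through this tract the kinase complex mTORC1 and the RNA-binding protein LARP1 set their translation and stability. RPL5 and RPL11 also form, with 5S rRNA, a particle that binds the ubiquitin ligase MDM2 when ribosome assembly fails.

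Start-site sequences were taken from RefSeq on GRCh38.p14, which held 62 of the 77 core genes. A tract, defined as C followed by at least 4 more C or T and beginning within 5 bases of an annotated start, was present at 1 or more starts of 53 of these 62 genes (85.5%). Among 9232 other tested protein-coding genes 29.3% had one, as did 25.2% of all genes in the promoter table, and the median longest tract was 11 bases in core genes and 6 bases in the others. Tracts of at least 8 bases stood at 44 core genes (71.0%), against 8.36% of the others. The sequences run from 10 bases before the annotated start base to 19 bases after it on the coding strand, with the tract in capitals. The first set pairs a core gene with its paralog, and the second holds members that were lower or higher with PM2.5.
RPS27 (chr1:153990752-153990781, plus strand): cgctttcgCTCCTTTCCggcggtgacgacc
RPS27L (chr15:63157458-63157487, minus strand): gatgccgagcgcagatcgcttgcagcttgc
RPL22 (chr1:6199576-6199605, minus strand): cgctcaCCTCCCTTTCTaactccgctgccg
RPL22L1 (chr3:170870176-170870205, minus strand): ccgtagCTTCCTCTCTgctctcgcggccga
RPL36A (chrX:101391001-101391030, plus strand): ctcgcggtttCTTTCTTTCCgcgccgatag
RPL36AL (chr14:49620607-49620636, minus strand): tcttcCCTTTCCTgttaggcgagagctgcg
RPL13A (chr19:49487598-49487627, plus strand): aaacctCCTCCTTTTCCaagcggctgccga
RPL35 (chr9:124861938-124861967, minus strand): cgcctaCTTCCTCTTTCCCTCggagcgggc
RPL12 (chr9:127451387-127451416, minus strand): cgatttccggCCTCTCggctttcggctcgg
RPL3 (chr22:39319604-39319633, minus strand): gccgaccggCCTCTaccggcgggatttgat
RPL31 (chr2:101002279-101002308, plus strand): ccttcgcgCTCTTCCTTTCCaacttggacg
RPS29 (chr14:49598691-49598720, minus strand): agcgcgcagctggcagcggtggttgtttct
RPL7L1 (chr6:42879606-42879635, plus strand): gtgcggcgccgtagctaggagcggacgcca
RPS27 carried a tract of 9 bases and its paralog RPS27L none by this definition. RPL22 and RPL22L1 both carried one, as did RPL36A and RPL36AL. RPS29 and RPL7L1 had no such tract at the listed start.

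In the 300 bases around the starts (250 before and 50 after the start), other motifs were counted on both strands, and none of these strings contains another. GGGCGG was present at 36 of 62 core genes (58.1%), at 78.9% of the other tested genes and at 48.3% of all genes in the table. CCGGAAG was present at 22 core genes (35.5%), 23.0% of the others and 12.2% of all. TATAAA stood at 8.06% of core genes, 7.85% of the others and 14.0% of all, ATGGCGGC at 8.06%, 7.65% and 3.67%, and CACGTG at 6.45%, 13.1% and 8.77%. These matches describe the letters in the windows only.

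The rebuilt totals lay between 15361071 and 18892638 reads or fragments per library, of which the members made up 4.19% to 6.27% with lactoferrin plus PM2.5, 3.85% to 4.38% with PM2.5 and 4.17% to 6.47% in control. All 77 core genes passed the filter of at least 0.5 FPKM in at least 3 libraries, as did 7 of the 12 others. RPL10L was listed at 0 in every library, RPL3L stayed at or below 0.247 FPKM and the 3 readthrough genes at or below 0.313 FPKM. The core genes were among the most abundant transcripts, with a median control mean of 192 FPKM, against 4.06 FPKM for all 14454 tested genes. They ranged from 1.84 FPKM for RPS10 to 874 FPKM for RPS2, which encodes a small subunit protein at the mRNA entrance. FPKM here divide by the length of all annotated exons together, 767 to 9845 bases for core genes, so a gene with much unused exon sequence reads low.

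The ribosomal protein genes moved together from library to library, within groups as well as between them. On the log2(FPKM + 0.5) scale, the mean over core genes relative to the control mean was 0.26, -0.08 and -0.35 in replicates 1 to 3 of lactoferrin plus PM2.5. It was -0.23, -0.44 and -0.47 with PM2.5, and 0.25, 0.00 and -0.25 in control. Replicate 1 was the highest library of its group for 75 of 77 core genes with lactoferrin plus PM2.5, for 72 with PM2.5 and for 73 in control. The median range over the 3 libraries was 0.64 log2 units with lactoferrin plus PM2.5, 0.26 with PM2.5 and 0.51 in control. The 13 protein-coding genes of the mitochondrial genome had mean log2 levels of -0.07, -0.25 and -0.41 with lactoferrin plus PM2.5, 0.28, -0.04 and -0.20 with PM2.5, and -0.22, -0.04 and 0.26 in control. Their order matched that of the ribosomal proteins in the exposed groups and was opposite in control.

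Control replicate 3 stood apart in pattern as well as in level. Its core genes differed from the mean of the other control libraries by a median of -0.35 with an SD over genes of 0.35, while this SD was 0.07 to 0.21 in the other 8 libraries. RPL10, which encodes a protein that joins the large subunit last, had 303, 256 and 213 FPKM with lactoferrin plus PM2.5, 222, 197 and 201 FPKM with PM2.5 and 318, 267 and 106 FPKM in control. RPLP0, which encodes the base of the stalk, had 694, 499.7 and 412 FPKM with lactoferrin plus PM2.5, 456, 379 and 379 FPKM with PM2.5 and 802, 658 and 354 FPKM in control. RPL29 had 338, 275 and 224 FPKM with lactoferrin plus PM2.5, 236, 208 and 217 FPKM with PM2.5 and 364, 298 and 142 FPKM in control. In all 3 genes control replicate 3 was the lowest of the 9 libraries. RPL26 went the other way, with 15.3, 15.1 and 28.2 FPKM in control, the third being the highest of the 9, and shares 14.3% of its exon bases with another gene on its strand. What set this library apart was not tested.

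**Figure D1:**
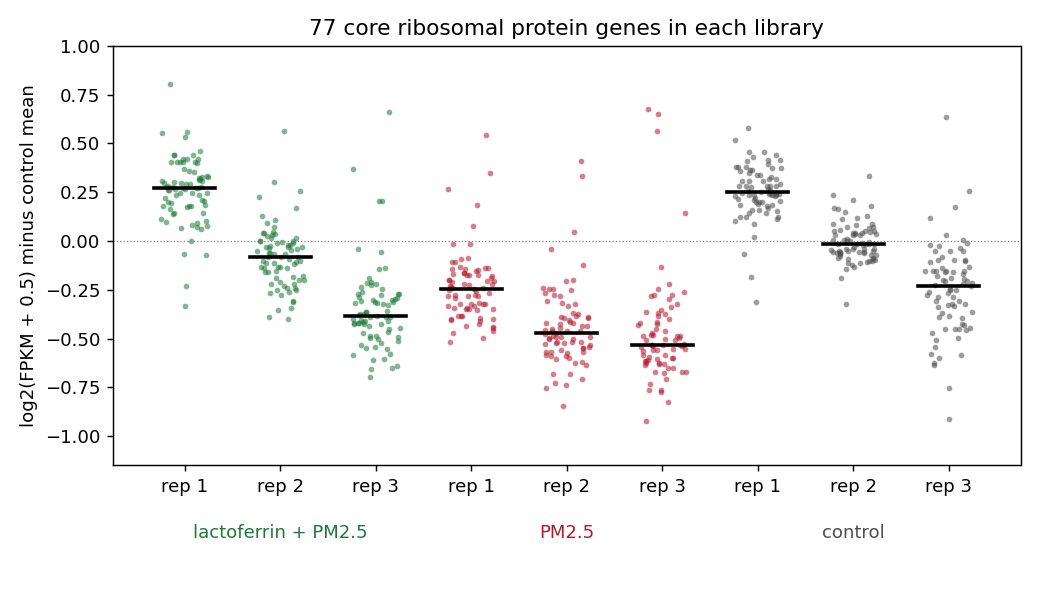
Level of each of the 77 core ribosomal protein genes in each library, as log2(FPKM + 0.5) minus the control mean of the same gene, with 1 point per gene and a black line at the median. Replicate 1 is the highest library of each group, the PM2.5 libraries have means of -0.23 to -0.47, and control replicate 3 has the widest scatter among control libraries.

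The first comparison set PM2.5 against control. Most ribosomal protein mRNAs had lower values with PM2.5: the median log2 fold change of the 84 tested members was -0.41, against 0.00 for all tested genes, and 78 of 84 were negative. In limma, with Benjamini-Hochberg adjustment over all tested genes, 19 members (22.6%) were lower with an adjusted p below 0.05, while 16.4% of all tested genes were called lower. Higher were 2 members, RPL36A and RPL7L1, while 18.7% of all tested genes were called higher. The PM2.5 libraries were all below the control libraries for 46 of 84 members, and 25.6% of all tested genes met that condition. In this fit the share of members called lower lay near that of all tested genes, whereas the direction was shared by most members. Some other fits gave shares further from that of all tested genes. Without control replicate 3, 33 of 84 members were lower, beside 14.4% of all tested genes. Without control replicate 1, 2 of 84 were lower, beside 13.4%. Log2 fold changes are given ± SE. FPKM measure shares of the RNA pool, so a lower value is a smaller share and does not give the amount per cell. Bulk samples do not show whether all cells changed alike.

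The count of members called lower with PM2.5 rested on the libraries entered. It was 2 of 84 without control replicate 1, 5 without control replicate 2 and 33 without control replicate 3. Of all tested genes 13.4%, 11.9% and 14.4% were called lower in these fits. Without PM2.5 replicates 1, 2 and 3 in turn the count was 10, 2 and 2, beside 12.1%, 12.6% and 12.6% of all tested genes. Without lactoferrin plus PM2.5 replicates 1, 2 and 3, which enter through the shared estimate of the spread and the filter, it was 36, 7 and 31. Of all tested genes 19.5%, 15.3% and 17.5% were then lower. The median stayed negative in all of these, between -0.55 without control replicate 3 and -0.26 without control replicate 1.

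Within the small subunit, 8 of 31 core genes (25.8%) were lower and none higher, with a median log2 fold change of -0.43. Of all tested genes 16.4% were called lower and 18.7% higher. RPS29 (ENSG00000213741, GRCh38 chr14:49570984-49599164, minus strand), which encodes a zinc-binding protein of the subunit head, had 12.8, 10.3 and 9.96 FPKM with PM2.5 and 21.3, 16.8 and 17.2 FPKM in control. The groups did not overlap, and the log2 fold change was -0.76 ± 0.17 (SE, adjusted p = 0.00804, limma), called in each of the 24 alternative analyses. RPS27, which encodes another zinc-binding protein, had 393, 344 and 333 FPKM with PM2.5 and 628, 509 and 479 FPKM in control, again without overlap. Its log2 fold change was -0.63 ± 0.18 (adjusted p = 0.0208, limma), lost without control replicate 1 or PM2.5 replicate 2 or 3. Also lower were RPS20, RPS28, RPS24, RPS15A and RPS25, whose product some viral internal ribosome entry sites need. Their log2 fold changes were -0.54, -0.53, -0.51, -0.51 and -0.46.

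Several well-known small subunit genes did not pass the test. RPS6, which encodes the target of the S6 kinases, had 280.4, 264 and 254 FPKM with PM2.5 and 393, 332 and 323 FPKM in control (log2 fold change -0.43 ± 0.15, adjusted p = 0.0547, limma). Its groups did not overlap, but the difference missed the threshold, which it passed without lactoferrin plus PM2.5 replicate 1 or 3. RPS19, the gene most often mutated in Diamond-Blackfan anaemia, had 116, 100.2 and 101 FPKM with PM2.5 and 181, 148 and 84.4 FPKM in control, and here control replicate 3 lay below every PM2.5 library. RPS3 (-0.43 ± 0.22), RPSA, known also as a laminin receptor (-0.36 ± 0.24), and RPS27A, made as a fusion with ubiquitin (-0.27 ± 0.15), also missed it. Without control replicate 3 RPS3 was at -0.66, called, and RPSA at -0.62, and without control replicate 1 they were at -0.24 and -0.18. RPS27A was at -0.17 without control replicate 1.

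Within the large subunit, 10 of 46 core genes (21.7%) were lower and 1 was higher (2.17%), with a median log2 fold change of -0.42. The shares of all tested genes were again 16.4% lower and 18.7% higher. RPL13A, whose product can leave the ribosome to repress interferon-induced mRNAs in monocytes, had 432, 357 and 355 FPKM with PM2.5 and 704, 561 and 479 FPKM in control. Its groups did not overlap, and the log2 fold change was -0.64 ± 0.20 (adjusted p = 0.0315, limma). RPL35, an exit tunnel protein gene, averaged 232 ± 32.5 FPKM with PM2.5 and 350.1 ± 41.7 FPKM in control (SD, n = 3 each; log2 fold change -0.64 ± 0.19). RPL12, which encodes a protein at the stalk base, averaged 303 ± 26.6 FPKM with PM2.5 and 455 ± 94.8 FPKM in control (-0.62 ± 0.18). RPL3, whose product reaches towards the peptidyl transferase centre, averaged 194 ± 12.8 FPKM with PM2.5 and 278 ± 57.7 FPKM in control (-0.55 ± 0.17). RPL31, RPL34, RPL37, RPL37A and RPL41 were also lower, with log2 fold changes between -0.50 and -0.55.

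The stalk and 5S particle genes had negative log2 fold changes too. None of the 3 stalk genes passed: RPLP0 had a log2 fold change of -0.55 ± 0.29 (adjusted p = 0.167, limma), RPLP1 of -0.48 ± 0.23 and RPLP2 of -0.42 ± 0.19. Without control replicate 3 the values were -0.88 for RPLP0 and -0.72 for RPLP1, both called, and without control replicate 1 they were -0.32 and -0.29. RPL11 had 206, 188 and 181 FPKM with PM2.5 and 299, 254 and 255 FPKM in control, with no overlap (log2 fold change -0.54 ± 0.17, adjusted p = 0.0364, limma). Its partner RPL5 had 174, 166 and 166 FPKM with PM2.5 and 229.7, 201 and 181 FPKM in control, also without overlap, and missed the threshold (-0.31 ± 0.14, adjusted p = 0.108, limma). RPL5 was called without lactoferrin plus PM2.5 replicate 1. RPL11 lost its call without any 1 of the 3 control or 3 PM2.5 libraries, or without lactoferrin plus PM2.5 replicate 2. FAU, which encodes a ribosomal protein that the naming rule misses, had a log2 fold change of -0.46 and was not called.

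**Figure D2:**
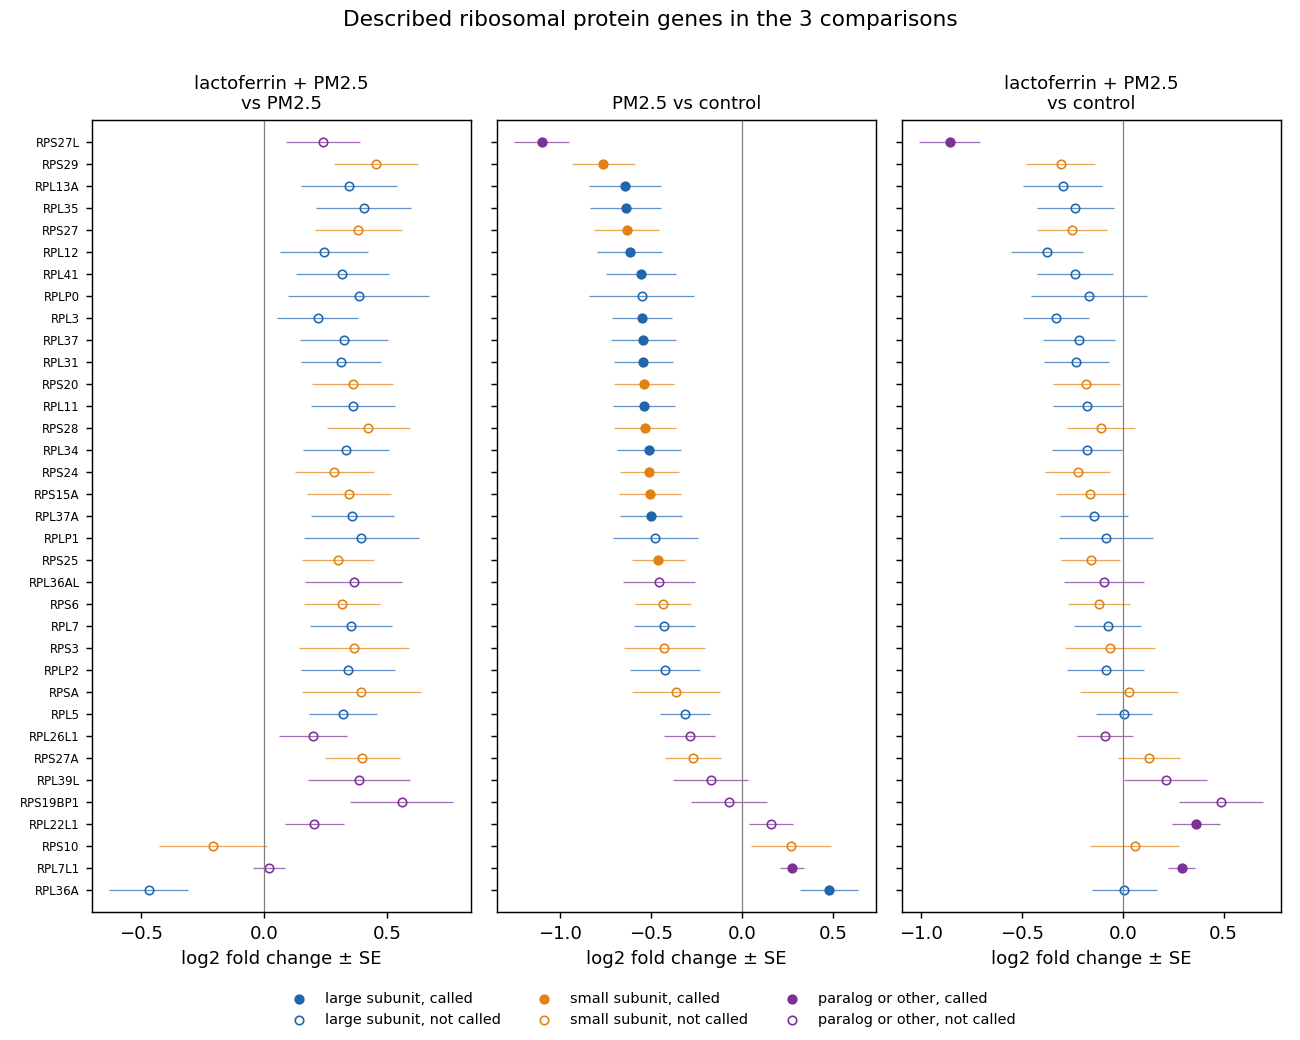
Log2 fold change with its standard error for 35 members whose fold changes the text gives, in the 3 comparisons and ordered by PM2.5 against control. Filled points passed an adjusted p under 0.05. With PM2.5 against control 31 of these 35 lie below 0, between pretreated and PM2.5 cells 33 lie above 0, and RPS27L stands at the far end in both comparisons with control.

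The lowest log2 fold change of all members was that of a paralog. RPS27L (ENSG00000185088, GRCh38 chr15:63125872-63158021, minus strand), a relative of RPS27 and a known target of p53, had 2.34, 2.5 and 2.69 FPKM with PM2.5 and 6.79, 6.36 and 4.38 FPKM in control. The groups did not overlap, and the log2 fold change was -1.10 ± 0.15 (0.467-fold; adjusted p = 0.000658, limma), called in each of the 23 alternatives in which it was tested. RPL7L1 (ENSG00000146223, GRCh38 chr6:42879618-42889925, plus strand), whose product is found on large subunit precursors, went the other way, with 45.5, 47.4 and 49.2 FPKM with PM2.5 and 38.7, 38.2 and 36.7 FPKM in control. Its log2 fold change was 0.27 ± 0.07 (adjusted p = 0.0113, limma), and only leaving out PM2.5 replicate 3 ended the call. Replicates of RPL7L1 differed little: its SD was at most 1.85 FPKM in any group. RPL22L1 had 21.7, 19.7 and 21.1 FPKM with PM2.5 and 20.5, 18.3 and 15.5 FPKM in control (0.16 ± 0.12, adjusted p = 0.338, limma). RPL36AL (-0.46 ± 0.20), RPL26L1 (-0.29 ± 0.14), RPL39L (-0.17 ± 0.21) and RPS19BP1 (-0.07 ± 0.21) were not called.

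A positive log2 fold change with PM2.5 was rare among core genes (4 of 77), and RPL36A, RPS10 and RPL17 had one. RPL36A (ENSG00000241343, GRCh38 chrX:101390824-101396154, plus strand) had 3.13, 3.36 and 4.25 FPKM with PM2.5 and 2.26, 2.27 and 2.47 FPKM in control (0.48 ± 0.16, adjusted p = 0.0440, limma). Its groups did not overlap, but leaving out any 1 of the 3 control or 3 PM2.5 libraries, or lactoferrin plus PM2.5 replicate 2, ended the call. RPL17 had 6.93, 5.99 and 6.61 FPKM with PM2.5 and 7.57, 6.69 and 3.44 FPKM in control, and RPS10 had 2.16, 1.82 and 3.32 FPKM with PM2.5 and 1.58, 1.74 and 2.19 FPKM in control. These 3 were among the core genes with the lowest FPKM, and each shares exon bases on its own strand with another gene. The shared part is 8.40% of exon bases for RPL36A and 39.4% for RPS10, and 32.7% for RPL17, in each case with a readthrough gene. Of all 89 members, 38 share exon bases with another gene on the same strand. They include RPL36A, RPS10, RPL17 and the readthrough genes themselves. Among the others the shared part varied, for example 25.6% for RPS2 and 2.23% for RPS20. The sources used here do not state how shared reads were assigned. The values of RPL36A, RPS10 and RPL17 are therefore uncertain, and the part of sharing in them was not tested. In addition 76 of 77 core genes have pseudogenes named after them (1137 in all, of which 102 were tested), so reads could be split between copies.

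**Figure D3:**
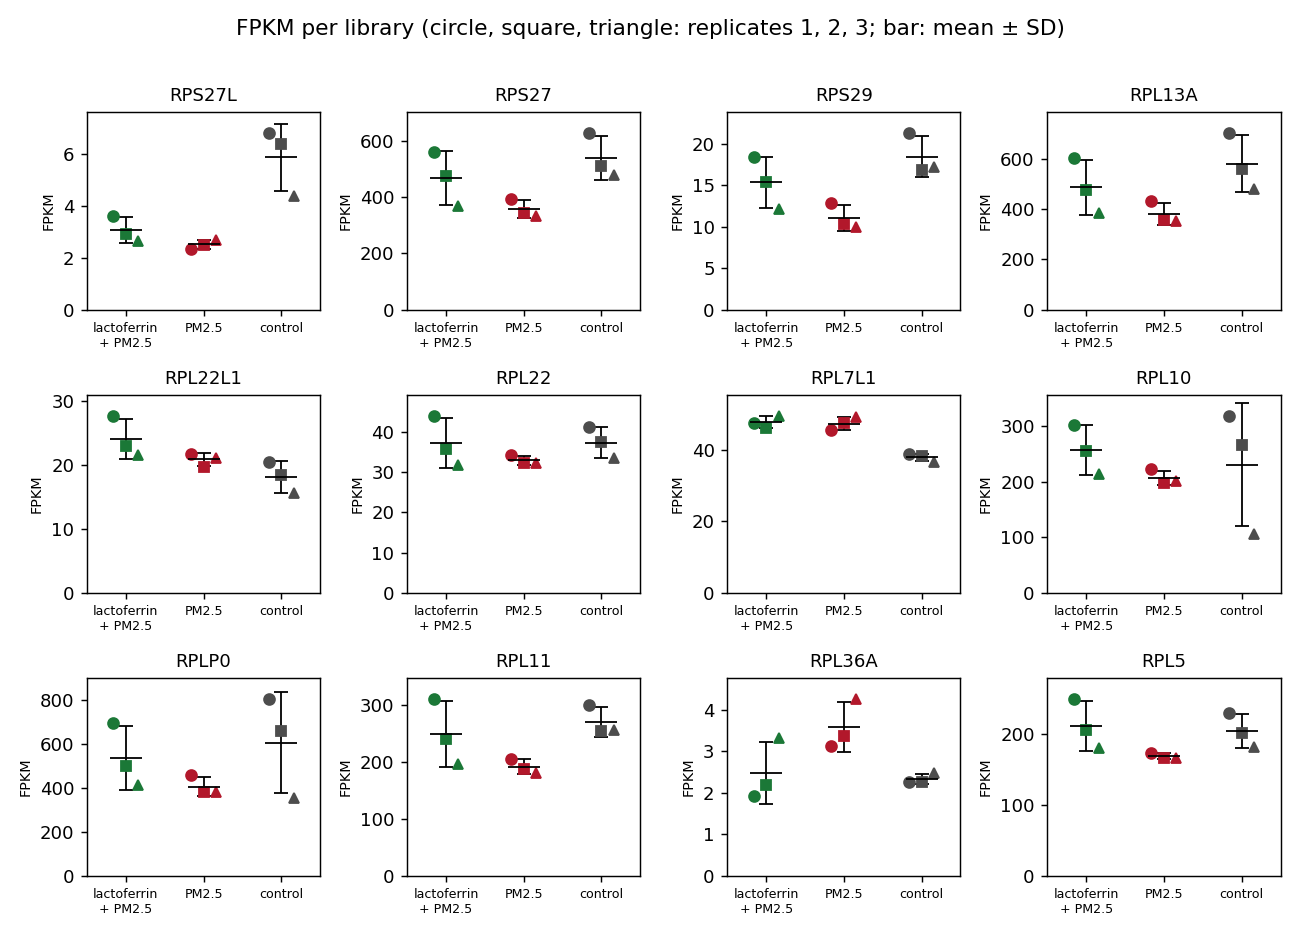
FPKM of 12 members in each library, with replicates as circle, square and triangle and the group mean ± SD. RPS27L is highest in all 3 control libraries, RPL7L1 is lowest in them, and RPL10 and RPLP0 in control replicate 3 lie far below the other control libraries.

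The second comparison asked how pretreated cells differed from cells given PM2.5 without lactoferrin. It shares the PM2.5 libraries with the first. No member was called by limma or by limma-voom on rebuilt fragments, and limma called 0.0208% of all tested genes higher and 0.0277% lower. The log2 fold change was positive for 82 of 84 members with a median of 0.35, against 0.01 for all genes, and 8 members had an unadjusted p under 0.05 (1761 of 14454 genes). The smallest adjusted p of a member was 0.369 (limma, Benjamini-Hochberg), for RPL36A. The lactoferrin plus PM2.5 libraries were all above the PM2.5 libraries for 5 members, RPL6, RPS7, RPS26, RPS27A and RPS19BP1, a condition that 9.45% of all tested genes met. Both groups also differed in their time in PM2.5, 18 h and 24 h, and lactoferrin and time cannot be told apart.

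The size of this difference followed single libraries. The median was 0.16 without lactoferrin plus PM2.5 replicate 1, the highest library, and 0.50 without replicate 3, the lowest. RPS27A had 267, 214 and 187 FPKM with lactoferrin plus PM2.5 and 177, 166 and 161 FPKM with PM2.5 (0.40 ± 0.15, adjusted p = 0.390, limma). RPS29 had 18.3, 15.4 and 12.2 FPKM with lactoferrin plus PM2.5 and 12.8, 10.3 and 9.96 FPKM with PM2.5 (0.45 ± 0.17). In RPS29 replicate 3 of the pretreated group lay below the highest PM2.5 library. RPS19BP1 had the highest log2 fold change of all members (0.56 ± 0.21), RPL7L1 one close to 0 (0.02 ± 0.07), and RPL36A (-0.47 ± 0.16) and RPS10 (-0.21 ± 0.22) the only negative ones. With libraries weighted by their estimated quality the count of members called higher was not 0 but 29 or 78, depending on the weighting method, while 976 or 3425 of all tested genes were called higher. Both methods gave lactoferrin plus PM2.5 replicate 2 the highest weight.

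The third comparison set lactoferrin plus PM2.5 against control. It shares its libraries with both comparisons above. The members had a median log2 fold change of -0.05, against 0.00 for all genes, with 28 positive and 56 negative. Called higher were 3 members, among them RPL7L1 and RPL22L1, and called lower was RPS27L (limma, Benjamini-Hochberg), while 20.4% of all tested genes were called higher and 18.2% lower. The median turned positive without control replicate 1 (0.06) or lactoferrin plus PM2.5 replicate 3 (0.10), and was -0.20 without control replicate 3 and -0.24 without lactoferrin plus PM2.5 replicate 1.

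RPS27L had 3.60, 2.91 and 2.64 FPKM with lactoferrin plus PM2.5 and 6.79, 6.36 and 4.38 FPKM in control, with no overlap (-0.86 ± 0.15, adjusted p = 0.00204, limma). RPL7L1 had 47.5, 46.2 and 49.5 FPKM with lactoferrin plus PM2.5 and 38.7, 38.2 and 36.7 FPKM in control (0.29 ± 0.07, adjusted p = 0.00721, limma). Both calls held in every alternative in which the gene was tested. RPL22L1, known to be raised where RPL22 is lost, had 27.6, 22.9 and 21.6 FPKM with lactoferrin plus PM2.5 and 20.5, 18.3 and 15.5 FPKM in control (0.36 ± 0.12, adjusted p = 0.0403, limma). Its groups did not overlap, but only 2 of the 9 analyses that each left out 1 library kept the call, those without control replicate 1 and without lactoferrin plus PM2.5 replicate 3.

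Within pairs, the paralog's percentage of the summed FPKM of the pair removes what both genes share in a library. RPL22L1 made up 38.5, 38.9 and 40.3 percent of RPL22L1 plus RPL22 with lactoferrin plus PM2.5, 38.7, 37.8 and 39.5 percent with PM2.5 and 33.2, 32.8 and 31.6 percent in control. All 6 exposed libraries lay above all 3 control libraries, and the pretreated and PM2.5 libraries overlapped. RPL39L made up 8.81, 9.39 and 8.65 percent of its pair with lactoferrin plus PM2.5, 9.50, 8.74 and 8.84 percent with PM2.5 and 8.22, 6.98 and 8.17 percent in control, again without overlap between exposed and control libraries. RPS27L made up 0.639, 0.611 and 0.710 percent with lactoferrin plus PM2.5, 0.592, 0.721 and 0.801 percent with PM2.5 and 1.07, 1.24 and 0.908 percent in control. Here the control libraries were the highest. RPL7L1 made up 8.20, 10.1 and 12.7 percent with lactoferrin plus PM2.5, 11.7, 12.3 and 13.5 percent with PM2.5 and 7.55, 8.58 and 8.10 percent in control, and RPL7 with PM2.5 had a log2 fold change of -0.43, not called. RPL26L1 overlapped in all comparisons. A two-sided exact permutation test gave p = 0.1 for PM2.5 against control in each of RPL22L1, RPL39L, RPS27L, RPL36AL and RPL7L1, the smallest p that 3 against 3 allows, and an adjusted p of 0.225 over 18 tests.

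**Figure D4:**
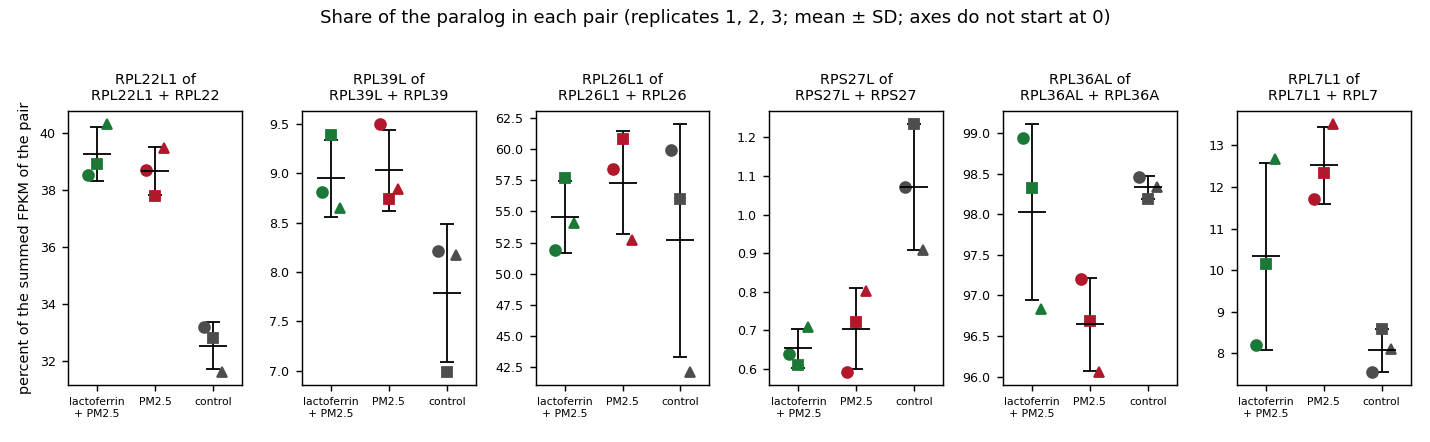
Percentage that the paralog contributes to the summed FPKM of the paralog and its core gene, per library, with the group mean ± SD. Exposed libraries lie above control for RPL22L1 and RPL39L and below it for RPS27L, while RPL26L1 overlaps.

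Genes that build, feed or regulate the ribosome were read in lists beside the ribosomal proteins. With PM2.5 against control, 11 of 31 large subunit assembly factors (35.5%) were higher and none lower (median log2 fold change 0.22), and 15 of 43 small subunit assembly factors (34.9%) were higher and 3 lower (0.18). Examples were RRS1, which helps to place the 5S particle (30.7 ± 0.655 FPKM with PM2.5 and 17.2 ± 1.74 FPKM in control), and RRP12, a ribosome export factor (15.3 ± 0.288 FPKM with PM2.5 and 8.07 ± 0.232 FPKM in control; SD, n = 3 each). Mean log2 levels of the large subunit assembly factors were 0.15, 0.21 and 0.17 with PM2.5 and -0.08, -0.06 and 0.14 in control. Those of the small subunit assembly factors were 0.08, 0.16 and 0.11 with PM2.5 and -0.05, -0.07 and 0.12 in control. For the small subunit list, control replicate 3 thus lay above PM2.5 replicates 1 and 3. Of 24 RNA polymerase I genes 9 were higher and none lower, and the median was 0.00. Of 37 initiation factors 8 were higher (21.6%) and 3 lower (8.11%; median 0.04), while 18.7% of all tested genes were higher and 16.4% lower. A list of 10 elongation factors, release factors and their regulators had a median of 0.13. Among them EEF1A2, a form of the factor that brings tRNA to the ribosome, was lower (-0.53), and EEF1A1 (-0.39), EEF1B2 (-0.44) and EEF2 (-0.08) were not called. Of 76 mitochondrial ribosomal protein genes 8 were higher and 3 lower (0.10). Other known TOP mRNAs had a median of -0.16, with 2 of 29 higher and 3 lower. NAP1L1, a nucleosome assembly factor, and HNRNPA1, a splicing factor, were among the lower ones. Of 40 genes of mTORC1 signalling and TOP control 8 were higher (20%) and 7 lower (17.5%; median 0.07), shares near those of all genes. Short protein-coding genes, with under 1000 exon bases, had a median of -0.24, with 10 of 118 higher and 32 lower, and the part of length in the members' values was not tested beyond the correction given among the alternatives.

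With lactoferrin plus PM2.5 against control, 16 of 31 large subunit assembly factors were higher and 1 lower, 19 of 43 small subunit assembly factors were higher and none lower, and 22 of 76 mitochondrial ribosomal protein genes were higher and 1 lower. These are 51.6%, 44.2% and 28.9% called higher, beside 20.4% of all tested genes, of which 18.2% were lower. Their medians were 0.33, 0.34 and 0.33, beside -0.05 for the cytosolic members. Between pretreated and PM2.5 cells no gene of these lists was called. The mitochondrial ribosomal protein genes then had positive values for 74 of 76 (median 0.25), and the large and small subunit assembly factors had medians of 0.17 and 0.18. In the pretreated group replicate 1 was the highest library in these lists too, with mean log2 levels of 0.53, 0.25 and 0.04 for mitochondrial ribosomal proteins in replicates 1 to 3, relative to the control mean. Whether that library moved as a whole for another reason was not tested.

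**Figure D5:**
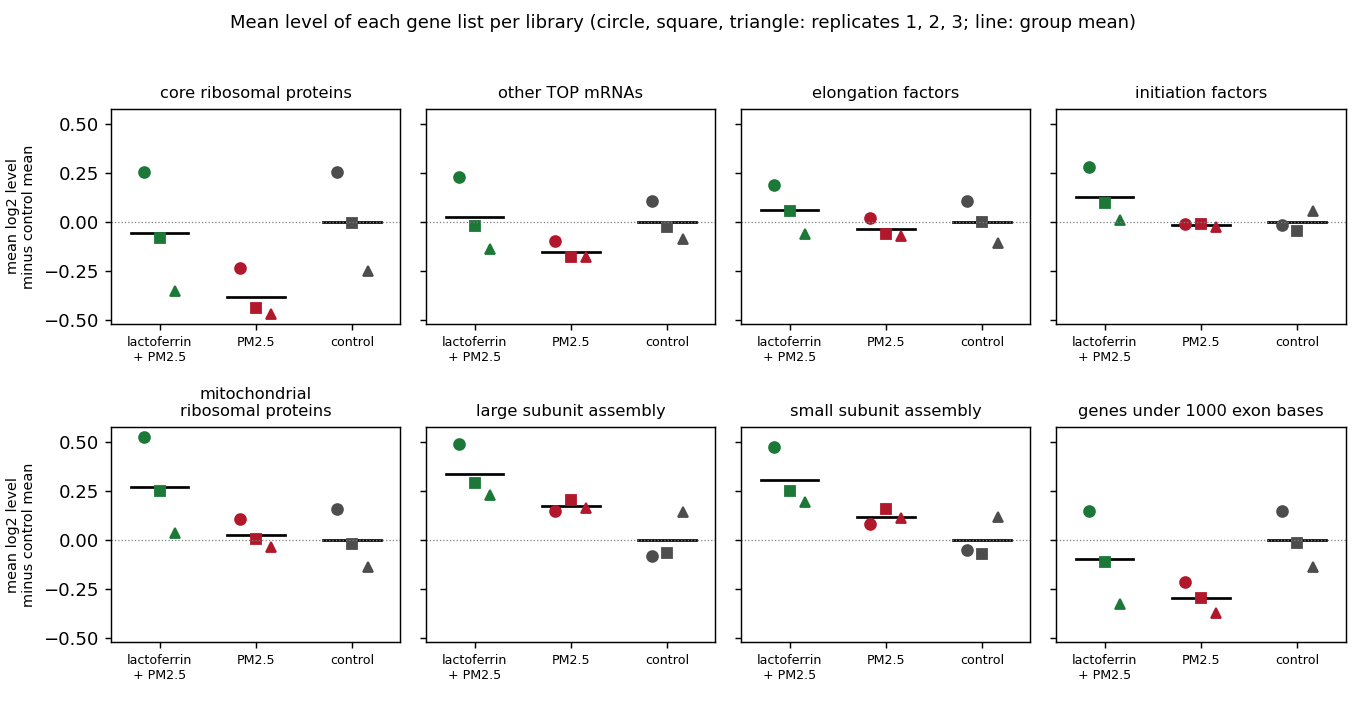
Mean log2 level of 8 gene lists in each library relative to the control mean, with replicates as circle, square and triangle and a line at the group mean. Core ribosomal proteins have their lowest group mean with PM2.5 (-0.38), with libraries at -0.23 to -0.47. Control replicate 3 (-0.25) and lactoferrin plus PM2.5 replicate 3 (-0.35) lie inside that range. Assembly factors lie above 0 in the PM2.5 libraries and also in control replicate 3 (0.14 for the large and 0.12 for the small subunit list). Replicate 1 is the highest library of the pretreated group in all 8 lists.

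Members with and without a tract, by the definition above, had similar medians. The median log2 fold change with PM2.5 against control was -0.43 for the 55 tested members with a tract and -0.36 for the 12 without one. Between pretreated and PM2.5 cells it was 0.34 with a tract and 0.37 without. The definition counts only tracts that begin close to an annotated start. RPL9, RPL15, RPL27, RPS15 and RPS26, counted as without one, have such a run further downstream in a start sequence. Because the split depends on where the start is annotated, these medians cannot show whether the tract made a difference. The member with the lowest fold change (RPS27L) and the called member RPL7L1 had no tract, while RPL13A, RPL35 and RPL31, all lower with PM2.5, had tracts of 11, 15 and 12 bases. RPS29, the core gene with the lowest log2 fold change, had none, and RPL36A, called higher, had a tract of 10 bases.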

How the data were processed

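RNA-seq was analysed for 9 libraries in 3 groups of 3, grouped by the sample labels. The authors deposited FPKM, 1 file per sample, and the unit was inferred from the values. Multiplying each by its gene's exon length (all exons merged, GENCODE v29, 58611 identifiers found) made 86.0% to 87.2% of low values per library a whole number of steps, with 0.05 allowed either way. Per the submitters' processing notes reads were handled with featureCounts 1.6.0, HISAT2 2.1.0 and Trimmomatic 0.38, DESeq2 1.22.1 was used, and the build was GRCh38. The annotation release, strand setting and counting unit were not given in the sources used here.

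After scaling by trimmed mean of M values (TMM) factors, log2(FPKM + 0.5) was fitted in limma 3.58.1 (R 4.3.3, eBayes with trend and robust options) with 3 group means over all 9 libraries. Benjamini-Hochberg adjustment covered the 14454 genes with at least 0.5 FPKM in at least 3 libraries, and a gene was called at an adjusted p under 0.05. The added 0.5 understates the fold changes of low genes. The procedure was tested on simulated data. Counting intervals were not used, since the values are FPKM.

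The members and lists were chosen with earlier results of these data known. Genes named were called members (the 12 with the smallest p if more), the 4 highest and 4 lowest fold changes, a set of members chosen for their role, and those with extreme levels or extreme control ranges; further members are named to complete counts or because they stood apart, after their values were seen. Some members are not reported here. Symbols POLR1F, POLR1G and POLR1H had no match in the annotation under these names.

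Correlations of deviations from group means between libraries of the same number lay between -0.07 and 0.18. Between libraries of different numbers they lay between -0.18 and 0.14. The ranges overlapped and the labels state no pairing, so the numbers were not taken to pair samples in the main fit. A batch shared by libraries of the same number is not excluded by this. Alternatives covered scaling, filter, pseudocount, limma-voom, replicate block, library weights, a length and GC trend, and leaving out libraries. For library weights, limma's default method stopped before it converged; its values are given, and a gene-by-gene method was added after they had been seen. Python 3.11.15 with matplotlib 3.10.9 made the figures.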

Additional observations from a re-analysis of the deposited data

How the results depend on the processing

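The median log2 fold change of the members kept its sign under every alternative in PM2.5 against control (-0.26 to -0.55) and between pretreated and PM2.5 cells (0.16 to 0.50). In lactoferrin plus PM2.5 against control it lay between -0.36 and 0.10. The counts of calls moved far more. For PM2.5 against control the 19 members called lower became 12 with upper-quartile factors, 2 with no filter on low values, 30 with limma-voom on rebuilt fragments, 31 with a length and GC trend removed and 33 with only the 6 libraries compared. Of all tested genes 15.5%, 5.46%, 17.8%, 19.2% and 19.1% were called lower in these settings, and 16.4% in the main fit. The members called lower became 74 with limma's default library weights, 70 with gene-by-gene weights (added after the default values were seen) and 64 without control replicate 3 and lactoferrin plus PM2.5 replicate 1 together. There 29.4%, 25.9% and 19.4% of all tested genes were lower. With a replicate block the members called lower were 59, beside 19.2% of all tested genes, and 64 with block and trend removal, beside 20.8%. The same numbers were not shown to pair samples, and not every library correlated best with its own number. The count called higher was 1 with no filter, with the stricter filter or among core genes. Leaving out 1 library at a time gave 2 to 36 lower and 0 to 2 higher.

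Between pretreated and PM2.5 cells, the weights gave 78 (default) or 29 (gene-by-gene) higher and 1 lower by either method, and RPL7L1 turned to -0.032 and -0.020. All other alternatives gave 0. For lactoferrin plus PM2.5 against control, the count higher was 7 with default weights and 1 with no filter, without those 2 libraries, with only the 6 libraries or among core genes, and 1 to 3 leaving out 1 library. The count lower was 0 with the stricter filter or among core genes, 6 with the replicate block, 22 and 11 with the weights, 5 with the trend removed, 15 with trend removal and block, 14 without those 2 libraries, and 1 to 5 leaving out 1 library. Of all tested genes 6.55% (no filter) to 37.3% (default weights) were called lower across the alternatives. With default weights 5615 of 14454 tested genes were called higher. The causes were not tested. In PM2.5 against control, leaving out 1 library took RPL10 to between -0.527 and 0.230, RPL29 to between -0.612 and 0.034, RPL39L to between -0.322 and 0.026 and RPS19BP1 to between -0.242 and 0.036. Of 34 named members, 24 changed sign in some alternative of lactoferrin plus PM2.5 against control, none of them called, with values of up to 0.33 on the log2 scale. Depth limits RPS10 and RPL36A, with under 5 FPKM. It also limits RPS27L, which was under 5 FPKM in every exposed library and in control replicate 3 and did not pass the stricter filter.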
